A study of Mus musculus with 6 samples.

Results

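Regulatory T cells (Treg) that had been stimulated in the presence of iBP were compared with Treg that had been left unstimulated. All cells were Treg of wild-type mice, taken from spleen and lymph nodes. The comparison used 4 of the 6 libraries, 2 per group. The other 2 libraries, of Treg stimulated without iBP, entered the same fit and are given beside the results. The study's design text names iBP as an inhibitor of H2AK119ub1, which is histone H2A carrying monoubiquitin at lysine 119, and speaks of activation in vitro. Treg with a conditional knockout of Kdm2b, also named there, were not analysed here. The labels give no stimulus, duration or dose, and no strain, age or sex of the mice, no sorting gate and no purity. No group received iBP without stimulation. What iBP did by itself and what it did to the response to stimulation therefore cannot be told apart here, and H2AK119ub1 was not measured in these data. Each library was made by SMART-seq, in which poly(A) RNA is copied from an oligo-dT primer and the cDNA is amplified by PCR. The genes compared were those with at least 1 FPKM (fragments mapped to a gene, scaled to the length of its transcript and to the number of fragments mapped in the library) in at least 2 of the 6 libraries, 10436 of the 24421 in the table. Of the 13985 genes left out, 8388 read 0 in all 6 libraries.

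Treg are CD4 T lymphocytes that restrain immune responses and depend on the transcription factor Foxp3. They consume interleukin 2 (IL-2) through a receptor with a high-affinity alpha chain. That receptor signals through the kinases JAK1 and JAK3 to the transcription factor STAT5, which raises Foxp3, its own feedback inhibitors of the SOCS family and the survival gene Bcl2, and represses Bcl6. Stimulation through the T-cell receptor acts beside it through calcium, MAP kinase and NF-kappaB signalling. H2AK119ub1 is placed by Polycomb repressive complex 1 (PRC1), whose variant PRC1.1 is brought to unmethylated CpG islands by the subunit Kdm2b. The mark is known for holding developmental genes silent.

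Of 10436 genes, 183 passed the limma test at an adjusted p under 0.05, which is 1.75%. They divided into 107 higher with stimulation and iBP (1.03%) and 76 lower (0.728%). Differences are given throughout as iBP minus unstimulated on the log2(FPKM + 1) scale with the standard error of the fit, a scale that understates the change of genes at low levels. Genes that rose did so by 0.51 to 5.15, and genes that fell did so by 0.46 to 2.97 on that scale. At least 2-fold differences were found in 93 genes, 64 higher and 29 lower. At an unadjusted p under 0.05 there were 1278 genes, where 521.8 would be expected if no gene differed. The unadjusted 95% interval of a single gene had a median half-width of 0.57. The largest unadjusted limma p among the genes that passed was 0.000856, so differences well above 0.57 could also fail to pass. Across all tested genes the median difference was −0.03. Levels here are RNA levels of a bulk sample, in which fewer cells of a type and less RNA per cell cannot be told apart.

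**Figure D1:**
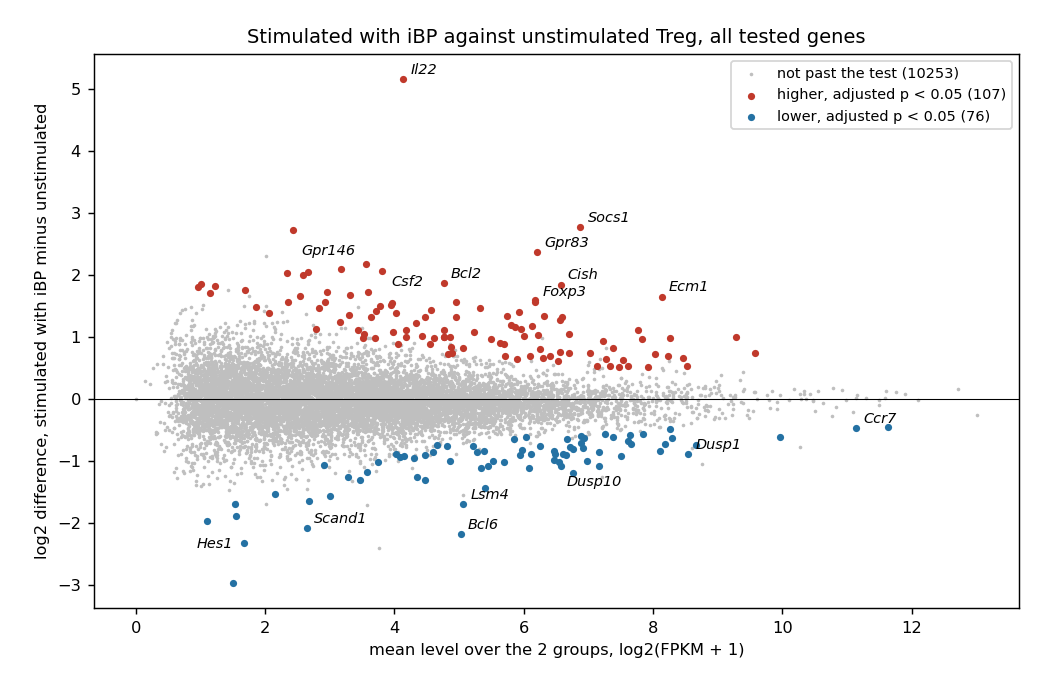
Each point is a gene; the horizontal axis is its mean level over the 2 groups as log2(FPKM + 1) and the vertical axis its log2 difference, stimulated with iBP minus unstimulated. Red points are the 107 genes past the test that were higher, blue points the 76 that were lower and grey points the rest; Il22 stands alone at 5.15, and the genes past the test at the highest levels, such as Ccr7, differed by less than 1.

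Summed FPKM was similar across libraries, at 366044 to 381302, which does not measure their read depth. Genes above 0 numbered 12596 to 13592, the fewest in unstimulated replicate 1. Unstimulated replicate 1 stood apart, at −37.9 on the first principal component, which held 33.5% of the variance. Unstimulated replicate 2 was at −9.32 and the other 4 libraries lay between 10.5 and 13.3. Without unstimulated replicate 1, 95 genes passed (63 higher and 32 lower). Without iBP replicate 1 the count was 76 (44 and 32), and without iBP replicate 2 it was 53 (37 and 16). Of the 183 genes, 38 passed in each of the 6 fits with 1 library left out, 31 higher and 7 lower, and 145 lost the call or dropped below the filter in at least 1. The libraries of the groups did not overlap in any of the 183, where 18.1% of all tested genes had both iBP libraries above both unstimulated ones and 23.9% had both below. None of the 183 changed direction in any of the 16 alternative fits in which it was tested. Without overlap, leaving out a library or changing the pseudocount, filter or variance moderation could not reverse a direction. The unchanged direction is therefore no measure of stability. Of the alternatives, 2 gave far fewer genes: 9 passed (6 higher and 3 lower) without a trend of the variance with mean level, and 11 (10 and 1) with no filter on low levels. In all 16, the genes Il22, Socs1, Gpr83, Bcl2 and Bcl6 passed.

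Cytokine genes were among the strongest rises, led by Il22, the gene of a cytokine through which lymphocytes act on epithelial cells. Il22 (chr10:118204942-118210047 on the plus strand of mm10) read 1.85 and 1.99 FPKM in unstimulated, 129.5 and 184 in stimulated and 128 and 82.5 in iBP libraries. Both iBP libraries lay far above both unstimulated ones, and the difference was 5.15 ± 0.22 (adjusted p = 2.62e-07). Csf2, which encodes the granulocyte-macrophage colony-stimulating factor, read 8.35 and 3.78 FPKM in unstimulated, 36.6 and 45.2 in stimulated and 31.2 and 23.0 in iBP libraries, rising by 2.05 ± 0.29 (adjusted p = 0.00336). Its unstimulated libraries were far apart, and its groups did not overlap, as in every gene past the test. Lta, which encodes lymphotoxin alpha, rose by 1.47 ± 0.15 from 22.0 and 24.2 to 69.4 and 62.3 FPKM (adjusted p = 0.000482). Smaller or less certain rises were those of Osm (oncostatin M; 1.55, adjusted p = 0.0222), Lif (leukaemia inhibitory factor; 1.48, adjusted p = 0.0266) and Tnf (tumour necrosis factor; 0.81, adjusted p = 0.0333). Of 29 tested genes on the effector cytokine list, 6 rose and 0 fell, against 1.03% and 0.728% of all tested genes. This and the other gene lists were chosen with earlier results of these data known, so their counts are descriptions and not tests. The list's median difference was 0.23, against −0.03 for all genes. Without either iBP library 3 rose, and without unstimulated replicate 1 there were 4. Osm lost the call without either iBP library (adjusted p = 0.0945 to 0.163). Lif lost the call without any 1 of the 4 libraries compared (adjusted p = 0.07 to 0.258). Tnf lost the call without unstimulated replicate 1 or either iBP library (adjusted p = 0.169 to 0.235).

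Several well-known cytokine genes did not pass. Ifng, the interferon gamma gene, read 5.21 and 5.66 FPKM in unstimulated, 13.1 and 3.08 in stimulated and 21.2 and 13.6 in iBP libraries (difference 1.49, adjusted p = 0.159). Both iBP libraries were above both unstimulated ones, and the stimulated libraries lay on either side of the unstimulated pair. Il17a, a type 17 cytokine gene, read 1.36 and 0.643 FPKM in unstimulated, 10.6 and 8.98 in stimulated and 3.22 and 4.18 in iBP libraries (1.25, adjusted p = 0.0761). Il10, a suppressive cytokine of Treg, read 62.7 and 65.2 FPKM unstimulated and 62.5 and 55.5 with iBP, so that the groups overlapped (−0.12, 95% interval −0.43 to 0.20). Il2 itself was close to the floor of the table, at 1.07 and 0 FPKM unstimulated and 1.16 and 3.10 with iBP (1.05, adjusted p = 0.396). Of 27 tested cytokine receptor genes 1 rose and 0 fell, against 1.03% and 0.728% of all tested genes. That gene was Il4ra, the interleukin 4 receptor alpha chain, at 29.7 and 43.0 FPKM unstimulated and 85.3 and 80.9 with iBP (1.19 ± 0.18, adjusted p = 0.00627). Il4ra lost the call without either iBP library (adjusted p = 0.0516 to 0.058).

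The IL-2/STAT5 response list held the largest number of rises: 13 of 30 tested members rose and 0 fell. The share of all tested genes that rose was 1.03%, but the list was chosen with earlier results of these data known. Gene lists share members: these 13 include Osm, Lif and Lta of the effector cytokines, Il2ra and Il2rb, and all 4 SOCS family rises. The list's median difference was 0.58, and 23 of its 30 members had a difference above 0, against 45.6% of all genes. Without either iBP library 5 members rose, without either unstimulated library 10, and 0 fell in any of these fits. Socs1, an inhibitor of JAK kinases that is induced by cytokine signals, went from a mean of 44.0 ± 0.9997 to 305 ± 17.3 FPKM (SD, n = 2), a rise of 2.77 ± 0.12 (adjusted p = 2.62e-07). It read 317 and 288 FPKM in the stimulated libraries, so that the 4 stimulated libraries of both kinds lay together and well above the unstimulated pair. Cish, a feedback inhibitor that STAT5 induces, read 43.9 and 54.7 FPKM in unstimulated, 170.1 and 186 in stimulated and 169 and 188 in iBP libraries, rising by 1.84 ± 0.14 (adjusted p = 4.76e-05). Bcl2, which protects T cells from mitochondrial death, went from 13.6 and 12.9 to 46.1 and 55.8 FPKM (1.86 ± 0.17, adjusted p = 0.000192). Myc, a driver of growth, was already abundant at 206 and 231 FPKM and rose to 437 and 423 (0.97 ± 0.12, adjusted p = 0.0015). Socs2 rose by 1.56 (adjusted p = 0.0103) and Socs3 by 1.33 (0.0221), and the cyclin gene Ccnd2 by 0.64 (0.033). For Socs3 the unstimulated libraries were far apart, at 21.8 and 46.0 FPKM, below 81.6 and 81.6 with iBP. Socs2 lost the call without unstimulated replicate 1 or either iBP library (adjusted p = 0.0648 to 0.0993). Socs3 lost the call without either iBP library (adjusted p = 0.118 to 0.124). Ccnd2 lost the call without any 1 of the 4 libraries compared (adjusted p = 0.0801 to 0.323).

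Both receptor chains for IL-2 that passed were higher. Il2ra, the alpha chain, read 106 and 92.9 FPKM in unstimulated, 175 and 204 in stimulated and 170.4 and 164 in iBP libraries, rising by 0.74 ± 0.13 (adjusted p = 0.0116). Il2rb, the beta chain, went from 244 and 316 to 435 and 447 FPKM, a rise of 0.66 ± 0.13 (adjusted p = 0.0262). They were 2 of the 15 tested genes of the JAK, STAT and IL-2 receptor list, of which 0 fell (1.03% rose and 0.728% fell over all genes). Jak3, the kinase bound to the shared gamma chain, read 9.72 and 16.7 FPKM unstimulated and 18.5 and 19.97 with iBP (0.55, adjusted p = 0.415). In the SOCS family 4 of 8 genes rose (Socs1, Cish, Socs2 and Socs3, all counted in the IL-2/STAT5 list above) and 1 fell. Without either iBP library 2 rose, Socs1 and Cish. The one that fell, Socs5, is a family member outside the STAT5-induced group and read 6.98 and 6.15 FPKM in unstimulated, 2.75 and 4.73 in stimulated and 2.05 and 1.21 in iBP libraries (−1.54 ± 0.33, adjusted p = 0.0378). Il2ra lost the call without unstimulated replicate 2 or either iBP library (adjusted p = 0.055 to 0.141). Il2rb lost the call without unstimulated replicate 1 or either iBP library (adjusted p = 0.141 to 0.21). Socs5 lost the call without any 1 of the 4 libraries compared (adjusted p = 0.0794 to 0.27).

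STAT proteins bind DNA at sites of the form TTCNNNGAA, which reads the same on both strands. The motif was searched in windows from 250 bases before to 50 bases after annotated starts, from the RefSeq promoter table for GRCm38.p6, and 8.3% of all 32851 windows hold it. Of 107 higher genes 75 could be matched to that table (70.1%), and of 76 lower genes 58 (76.3%). A comparison of motif shares between these sets is void, since under 80% of them have a window. Shown here are the 250 bases before the start, with the motif in capitals, for Lta, Socs3 and Foxp3 among the genes that rose and for Bcl6 among those that fell. They show where the letters lie in genes on which the results turn. A match is a description of sequence and not a site of binding. Lta lies at chr17:35205352-35205601 (minus strand), Socs3 at chr11:117969367-117969616 (minus), the second annotated start of Foxp3 at chrX:7580233-7580482 (plus) and the second start of Bcl6 at chr16:23981284-23981533 (minus). Lta holds the motif 2 times, 152 and 16 bases before the start, Socs3 holds it 154 bases before, Foxp3 139 bases before, and Bcl6 168, 122 and 88 bases before. The first annotated start of Foxp3 holds it 0 times in the 250 bases before it, and that of Bcl6 holds it 1 time, 118 bases before. In Cish and Gzmb those 250 bases do not hold it, and their windows hold it only past that stretch. The windows of Socs1 and Il22, the pair with the smallest adjusted p, do not hold these letters.
Lta: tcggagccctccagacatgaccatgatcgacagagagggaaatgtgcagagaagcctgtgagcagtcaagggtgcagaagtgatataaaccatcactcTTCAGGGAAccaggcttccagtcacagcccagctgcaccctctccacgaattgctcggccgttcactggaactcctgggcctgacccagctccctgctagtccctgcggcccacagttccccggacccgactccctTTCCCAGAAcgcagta
Socs3: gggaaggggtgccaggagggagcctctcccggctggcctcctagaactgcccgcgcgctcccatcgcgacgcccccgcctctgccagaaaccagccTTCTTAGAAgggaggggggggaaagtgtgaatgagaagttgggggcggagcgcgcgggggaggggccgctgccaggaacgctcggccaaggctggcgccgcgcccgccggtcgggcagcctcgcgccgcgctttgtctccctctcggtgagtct
Foxp3: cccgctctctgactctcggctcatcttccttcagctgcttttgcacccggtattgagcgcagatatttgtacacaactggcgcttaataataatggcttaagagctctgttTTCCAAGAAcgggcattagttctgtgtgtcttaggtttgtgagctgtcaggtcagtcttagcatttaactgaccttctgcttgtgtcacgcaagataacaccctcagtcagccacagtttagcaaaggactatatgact
Bcl6: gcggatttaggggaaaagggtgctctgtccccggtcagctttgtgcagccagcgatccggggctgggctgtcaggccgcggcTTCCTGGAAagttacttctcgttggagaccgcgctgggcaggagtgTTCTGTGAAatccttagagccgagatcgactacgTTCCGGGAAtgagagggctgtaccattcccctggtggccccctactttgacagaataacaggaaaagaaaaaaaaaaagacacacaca

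Among genes that characterise Treg, 11 of 33 tested members of the Treg core list rose and 1 fell, with 1.03% and 0.728% over all genes. The median difference was 0.24, with 19 members above 0 and 14 below. Both iBP libraries were above both unstimulated ones in 17 members and below them in 8. The shares over all tested genes were 18.1% above and 23.9% below, so the 8 are near the latter. Without either iBP library 5 rose, and 9 and 8 rose without unstimulated replicate 1 and 2. Foxp3 (chrX:7573644-7595245, plus strand) read 35.5 and 47.1 FPKM in unstimulated, 121 and 101 in stimulated and 122 and 124 in iBP libraries, rising by 1.57 ± 0.16 (adjusted p = 0.000482). The iBP libraries were close to each other and both far above the unstimulated ones. Foxp3 is overlapped on the opposite strand by Ppp1r3f and Ccdc22, and Ppp1r3f also rose, at 1.70 and 1.44 FPKM unstimulated and 4.62 and 6.98 with iBP (1.38, adjusted p = 0.0463). Ppp1r3f lost the call without any 1 of the 6 libraries (adjusted p = 0.0716 to 0.398). The strand of the libraries is not given, so reads of these genes could not be separated where they overlap. Gpr83, a G protein-coupled receptor of Treg, read 31.6 and 31.8 FPKM in unstimulated, 162 and 163 in stimulated and 157 and 178 in iBP libraries, rising by 2.36 ± 0.12 (adjusted p = 1.6e-06). Its unstimulated values were nearly equal and both groups were tight. Ecm1, which encodes extracellular matrix protein 1, rose by 1.64 ± 0.12 from 156 and 161 to 506 and 486 FPKM (adjusted p = 3.55e-05).

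Lrrc32, which encodes GARP, the surface anchor for latent TGF-beta on Treg, went from 50.6 and 71.1 to 141 and 160.0 FPKM (1.31 ± 0.17, adjusted p = 0.00183). The costimulatory receptor gene Icos went from 106 and 109 to 204 and 207 FPKM (0.93 ± 0.11, adjusted p = 0.00156). Rises that depended on single libraries were those of Gzmb (granzyme B; 1.55), Entpd1 (the ectonucleotidase CD39; 1.47), Tnfrsf9 (4-1BB; 0.72), Swap70 (0.54) and Ctla4 (an inhibitory receptor central to Treg; 0.51). Penk, the proenkephalin gene, fell by 0.85 on the log2 scale, from 204 and 181 to 102 and 109.7 FPKM (adjusted p = 0.00349). Ctla4 read 196 and 209 FPKM in unstimulated, 257 and 286 in stimulated and 291 and 287 in iBP libraries. Its difference is small, and its groups did not overlap, as in every gene past the test. Gzmb and Entpd1 lost the call without either iBP library (adjusted p = 0.0632 to 0.136). Tnfrsf9 lost the call without unstimulated replicate 1 or either iBP library (adjusted p = 0.052 to 0.0937). Swap70 and Ctla4 lost the call without any 1 of the 4 libraries compared (adjusted p = 0.0629 to 0.384). Penk lost the call without iBP replicate 1 (adjusted p = 0.0601). Ikzf2, the gene of the Treg factor Helios, read 42.5 and 54.2 FPKM unstimulated and 46.4 and 46.8 with iBP, and its groups overlapped (−0.04, 95% interval −0.39 to 0.30).

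Outside these lists, and with predicted and small RNA names left out, the largest rise was in Gpr146, another receptor gene, which read 3.52 and 5.79 FPKM in unstimulated, 25.7 and 18.6 in stimulated and 23.7 and 24.0 in iBP libraries (2.17 ± 0.24, adjusted p = 0.000884). It overlaps 3110082I17Rik on the opposite strand. Mfsd2a, a lysophospholipid transporter gene, rose by 2.04 ± 0.27 from 2.62 and 1.65 to 11.4 and 12.2 FPKM (adjusted p = 0.00224). Kpna1, an importin alpha gene of nuclear import, rose by 1.60 ± 0.13 (adjusted p = 0.000124), and Xxylt1, a xylosyltransferase gene that acts on Notch-type repeats, by 1.73 ± 0.23 (0.00281). Each of these 4 genes passed without any 1 of the 6 libraries. Mettl13, a methyltransferase gene, rose by 1.73 (adjusted p = 0.0069), the metalloprotease gene Adam19 by 1.68 (0.0164) and the zinc-finger gene Zfp623 by 1.66 (0.0299). Zfp623 was low in every library, at 1.17 and 3.57 FPKM unstimulated and 9.19 and 8.78 with iBP. Mettl13 lost the call without iBP replicate 2 (adjusted p = 0.0708). Adam19 and Zfp623 lost the call without unstimulated replicate 1 or either iBP library (adjusted p = 0.072 to 0.182).

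**Figure D2:**
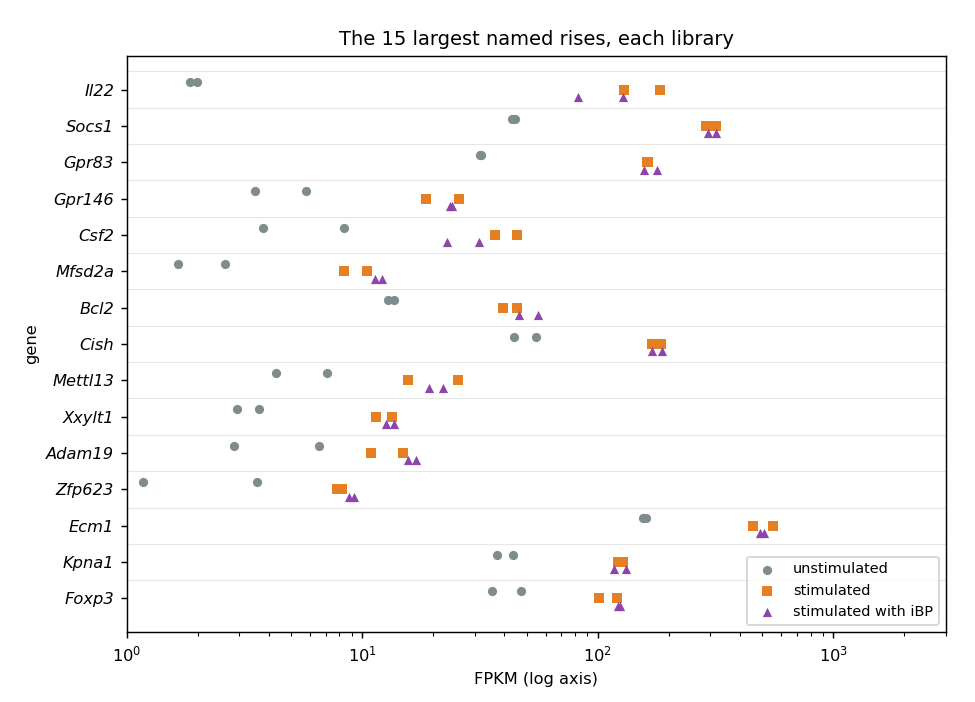
FPKM of each of the 6 libraries on a log axis, for the 15 largest named rises; grey circles are unstimulated, orange squares stimulated and purple triangles stimulated with iBP. Lack of overlap was a condition for being shown, so in each row both purple triangles lie to the right of both grey circles. The gap is largest for Il22 (1.85 and 1.99 against 128 and 82.5 FPKM).

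Among the genes that fell, Bcl6 had the smallest adjusted p. Bcl6 encodes a transcriptional repressor on which the follicular helper and follicular regulatory programmes depend. It read 72.0 and 64.7 FPKM in unstimulated, 13.3 and 15.4 in stimulated and 13.5 and 15.1 in iBP libraries. It fell by 2.18 on the log2 scale (SE 0.17, adjusted p = 6.67e-05), and the iBP libraries did not overlap the unstimulated ones. The largest named difference was that of Hes1, a repressor downstream of Notch, at −2.32 ± 0.46 (adjusted p = 0.028). Hes1 is a gene of low level, with 6.53 and 5.75 FPKM in unstimulated, 4.07 and 0.651 in stimulated and 0.523 and 0.332 in iBP libraries, and its stimulated libraries differed widely. Hes1 lost the call without any 1 of the 4 libraries compared (adjusted p = 0.0771 to 0.157). Of 13 tested genes on the Notch list, Hes1 was the 1 that passed, against 1.75% of all tested genes. Scand1, which encodes a small SCAN-domain protein, read 10.6 and 13.3 FPKM in unstimulated, 6.28 and 7.08 in stimulated and 1.96 and 2.101 in iBP libraries (−2.09 ± 0.26, adjusted p = 0.00165). The 3 groups formed 3 steps for this gene, with the iBP pair lowest, but iBP minus stimulated, at −1.34, did not pass (adjusted p = 0.6). Scand1 overlaps Cnbd2 on the opposite strand.

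Vapa, which tethers membranes to the endoplasmic reticulum, fell by 1.12 on the log2 scale, from 95.1 and 104 to 43.4 and 46.8 FPKM (adjusted p = 0.00183). Dusp10, a phosphatase gene that acts on the kinases JNK and p38, fell by 1.08, from 203 and 212 to 94.5 and 100.5 FPKM (adjusted p = 0.000821). Other falls concerned RNA processing (Lsm4, −1.70; Cactin, −1.30), mitochondrial calcium uptake (Micu2, −1.57), lactate export (Slc16a3, −1.44), DNA repair (Tdp2, −1.09) and the cytoskeletal GTPase Rac1 (−1.12). Rnf187 (−1.32) and Ccdc117 (−1.27) also fell. Slc16a3 read 51.2 and 88.3 FPKM in unstimulated, 42.2 and 38.8 in stimulated and 26.7 and 22.0 in iBP libraries, with the lowest values in the iBP pair. Rnaset2a (−1.19) has a near-identical copy, Rnaset2b, between which the authors' quantification could have divided reads, so its value is uncertain. Lsm4, Slc16a3, Rnf187 and Tdp2 lost the call without iBP replicate 2 (adjusted p = 0.0549 to 0.0801). Micu2 lost the call without unstimulated replicate 2 or iBP replicate 2 (adjusted p = 0.109 to 0.217). Cactin and Ccdc117 lost the call without unstimulated replicate 1 or either iBP library (adjusted p = 0.0523 to 0.0896). Rnaset2a lost the call without unstimulated replicate 1 or iBP replicate 2 (adjusted p = 0.111 to 0.127). Rac1 lost the call without any 1 of the 4 libraries compared (adjusted p = 0.0937 to 0.262).

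**Figure D3:**
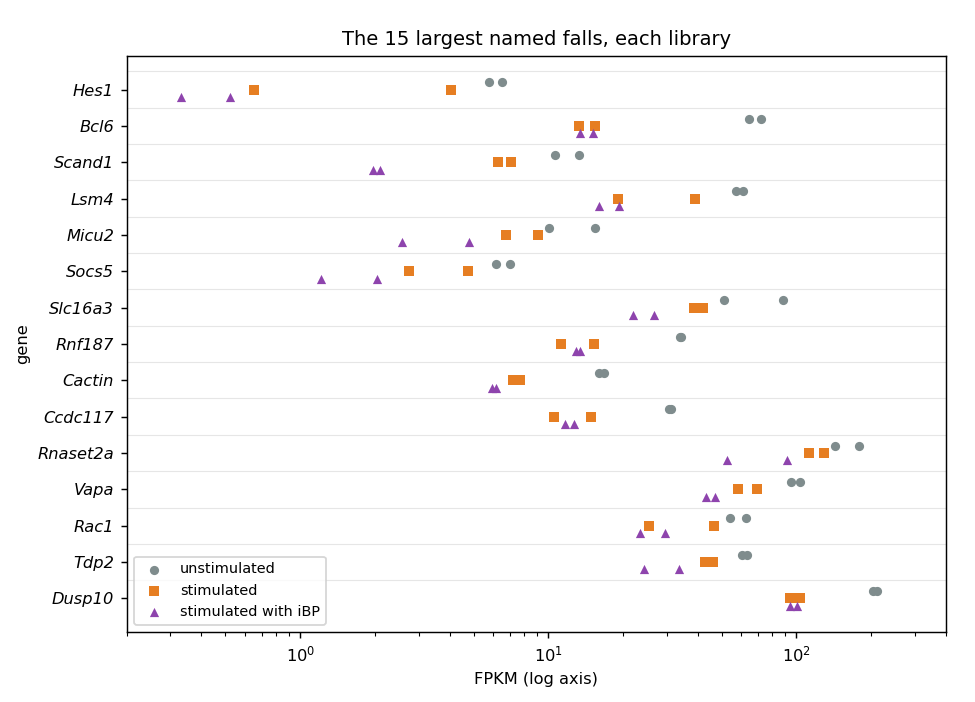
FPKM of each of the 6 libraries on a log axis, for the 15 largest named falls, with the same symbols for unstimulated (grey circles), stimulated (orange squares) and stimulated with iBP (purple triangles). Lack of overlap was a condition for being shown, so in each row both purple triangles lie to the left of both grey circles. Bcl6 iBP and stimulated libraries lie between 13.3 and 15.4 FPKM. For Scand1 the iBP libraries (1.96 and 2.101) lie below the stimulated ones (6.28 and 7.08).

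Genes of resting and naive T cells moved both ways: of 25 tested, 3 fell and 1, Bcl2, rose (0.728% and 1.03% over all genes). Tcf7, which encodes the naive and memory factor TCF1, read 134 and 128 FPKM in unstimulated, 65.3 and 69.8 in stimulated and 72.0 and 57.5 in iBP libraries, falling by 1.01 on the log2 scale (SE 0.14, adjusted p = 0.0033). Ccr7, the receptor that guides T cells into lymph nodes, was among the most abundant genes and read 2615 and 2704 FPKM in unstimulated, 1984 and 1785 in stimulated and 1853 and 1966 in iBP libraries. Its difference of −0.48 ± 0.10 was small (adjusted p = 0.0352). Cd27, a receptor of the TNF receptor family, differed by −0.77 (adjusted p = 0.0122). Klf2, a factor of quiescence and recirculation, read 34.3 and 34.5 FPKM in unstimulated, 37.4 and 37.8 in stimulated and 49.5 and 49.2 in iBP libraries (0.51, adjusted p = 0.118), the highest pair with iBP. Tcf7 lost the call without iBP replicate 2 (adjusted p = 0.0606). Ccr7 lost the call without any 1 of the 4 libraries compared (adjusted p = 0.0853 to 0.352). Cd27 lost the call without unstimulated replicate 1 or iBP replicate 1 (adjusted p = 0.0777 to 0.185).

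Immediate-early genes of the T-cell receptor response also divided, with 3 of 30 higher and 5 lower (1.03% and 0.728% over all genes). Jun, a subunit of the AP-1 factor, rose by 1.11 ± 0.12 from 136 and 159.8 to 306 and 332 FPKM (adjusted p = 0.000746), beside Myc and Irf4 (0.68, adjusted p = 0.0216). Dusp1, a phosphatase that ends MAP kinase signals, read 534 and 479 FPKM in unstimulated, 282 and 314 in stimulated and 282 and 263 in iBP libraries and fell by 0.89 on the log2 scale (adjusted p = 0.00183). The others that fell were Dusp10, Dusp2 (−0.86), Ier2 (−0.84) and Tnfaip3 (−0.73), which encodes the NF-kappaB inhibitor A20. Several classical early genes did not pass. Nr4a1, a receptor-induced nuclear factor, read 353 and 349.7 FPKM unstimulated and 367 and 359 with iBP (0.05, 95% interval −0.17 to 0.27). Cd69, an early activation marker, read 324 and 316 FPKM unstimulated and 316 and 302 with iBP (−0.05, 95% interval −0.28 to 0.18), and was high in both groups. Of 14 tested dual specificity phosphatase genes 3 fell, the same Dusp10, Dusp1 and Dusp2, and 0 rose, with a median difference of −0.32. Irf4 and Ier2 lost the call without unstimulated replicate 1 or either iBP library (adjusted p = 0.0752 to 0.229). Dusp2 lost the call without any 1 of the 4 libraries compared (adjusted p = 0.0679 to 0.246). Tnfaip3 lost the call without either iBP library (adjusted p = 0.0567 to 0.088).

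Receptors for costimulation and inhibition included 5 rises and 2 falls among 27 tested genes, with a median of 0.37. The shares over all genes were 1.03% and 0.728%. Without either iBP library 2 rose. Cd200, an inhibitory ligand, read 44.6 and 29.0 FPKM in unstimulated, 109 and 105 in stimulated and 99.2 and 94.1 in iBP libraries, rising by 1.40 ± 0.18 (adjusted p = 0.00189). Its receptor gene Cd200r1 rose by 1.31 ± 0.18 (adjusted p = 0.00281), from 14.6 and 11.8 to 35.5 and 32.7 FPKM. Fas, the death receptor gene, rose by 0.89 (adjusted p = 0.00903), beside Icos, Tnfrsf9 and Ctla4. Pdcd1, which encodes PD-1, read 242 and 278 FPKM in unstimulated, 174 and 164 in stimulated and 158 and 154 in iBP libraries and fell by 0.73 on the log2 scale (adjusted p = 0.00783), beside Cd27. The groups did not overlap for either gene that fell, as in every gene past the test. Fas and Pdcd1 lost the call without either iBP library (adjusted p = 0.0624 to 0.129).

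In the NF-kappaB list 1 of 24 genes rose and 2 fell. For this and the next 2 lists, the shares over all genes were 1.03% higher and 0.728% lower. Nfkbiz, an atypical inhibitor that also acts as a coactivator, rose by 1.33 ± 0.16 from 41.3 and 57.9 to 128 and 121 FPKM (adjusted p = 0.00136). The falls were Tnfaip3 and its partner Tnip1 (−0.62, adjusted p = 0.0425). Chemokine receptor and integrin genes had 2 rises and 3 falls among 25. Itgb8, a chain of the integrin that activates TGF-beta, rose by 1.11 ± 0.20 (adjusted p = 0.0159), and Selplg, a selectin ligand, by 0.53 (0.0315). Ccr8, a receptor of tissue Treg, fell by 0.75 on the log2 scale from 550.0 and 505 to 304 and 321 FPKM (adjusted p = 0.00438), beside Itgb7 (−0.89) and Ccr7. With Lrrc32 and Furin (0.97, adjusted p = 0.0313), Itgb8 was also 1 of the 3 rises among 18 tested TGF-beta genes, of which 0 fell. Furin cleaves the TGF-beta precursor. Tnip1, Selplg and Itgb7 lost the call without any 1 of the 4 libraries compared (adjusted p = 0.0632 to 0.28). Itgb8 lost the call without unstimulated replicate 2 or either iBP library (adjusted p = 0.064 to 0.151). Ccr8 lost the call without either iBP library (adjusted p = 0.0549 to 0.0821). Furin lost the call without any 1 of the 6 libraries (adjusted p = 0.0522 to 0.25).

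Other families with rises were small, beside shares over all genes of 1.03% higher and 0.728% lower. All 8 tested GIMAP genes, lymphocyte GTPases linked to survival, had a difference above 0 (median 0.46), and Gimap8 (0.72), Gimap3 (0.53) and Gimap9 (0.51) passed. Among 14 tested BCL2 family genes Bcl2 and Mcl1 (0.74, adjusted p = 0.0487) rose and 0 fell, with a median of −0.06. In the MYC and MXD network Myc and Mxd1, which competes with it for the partner MAX, both rose and 0 of 9 fell. Mxd1 read 51.1 and 51.4 FPKM in unstimulated, 103 and 98.9 in stimulated and 108 and 104 in iBP libraries (1.03 ± 0.12, adjusted p = 0.00136). Hif1a, the hypoxia and glycolysis regulator, rose by 0.96 ± 0.11 from 161 and 162 to 304 and 327 FPKM (adjusted p = 0.000832), beside Irf4 as the 2 rises of 26 helper lineage regulators, in which Bcl6 fell. Gimap8 lost the call without any 1 of the 6 libraries (adjusted p = 0.0557 to 0.343). Gimap3 and Gimap9 lost the call without any 1 of the 4 libraries compared (adjusted p = 0.0633 to 0.379). Mcl1 lost the call without any 1 library other than unstimulated replicate 2 (adjusted p = 0.0698 to 0.286).

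Genes of the Polycomb complexes and of the enzymes that remove H2AK119ub1 did not pass, with Ezh2 as the exception. As 1.75% of all tested genes passed, 0 calls in lists of this size is near that share. Limma called 0 of 8 tested PRC1.1 genes, with a median of −0.07, and 1 had an unadjusted p under 0.05. Kdm2b read 56.5 and 56.2 FPKM in unstimulated, 43.5 and 48.7 in stimulated and 41.3 and 39.3 in iBP libraries (−0.47 ± 0.14, adjusted p = 0.148). Its iBP libraries were the lowest and its unstimulated ones the highest. Rnf2, a catalytic subunit that places H2AK119ub1, read 54.1 and 63.6 FPKM unstimulated and 58.3 and 52.3 with iBP (−0.09, 95% interval −0.43 to 0.26). Ring1, the alternative catalytic subunit, was below the filter in all libraries, at 0.384 and 0.438 FPKM unstimulated and 0.147 and 0 with iBP. Pcgf1, the subunit that defines PRC1.1, differed by 0.00 (95% interval −0.66 to 0.65) and the corepressor gene Bcor by −0.05 (−0.56 to 0.47). It called 0 of 17 further PRC1 subunit genes (0 at an unadjusted p under 0.05) and 0 of 12 H2A deubiquitinase genes (1). Bap1, a deubiquitinase of that mark, differed by 0.02 (−0.47 to 0.52).

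Ezh2, the methyltransferase of the other Polycomb complex, PRC2, was the 1 gene of 12 tested on its list that passed. It read 7.01 and 5.76 FPKM in unstimulated, 13.5 and 17.8 in stimulated and 14.1 and 15.6 in iBP libraries, rising by 1.11 ± 0.22 (adjusted p = 0.0296). Ezh2 lost the call without any 1 of the 4 libraries compared (adjusted p = 0.0611 to 0.24). Of 145 developmental transcription factor genes that are typical Polycomb targets, 121 read 0 in all 6 libraries and 1, the B-cell factor Pax5, reached the level for testing (0.32, adjusted p = 0.77). Added together they had 4.61 and 4.87 FPKM in unstimulated, 4.50 and 2.73 in stimulated and 5.16 and 5.36 in iBP libraries. The iBP pair was the highest of the 3, at a level where 145 genes together had about 5 FPKM. These sums include Pax5, whose own difference did not pass, and were not tested.

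Lists of growth and metabolism had few or no genes past the test. With 1.75% of all tested genes past it, few calls are not a result about these lists. Of 57 tested cell cycle genes 1 rose, Ccnd2, and 2 fell, the kinase inhibitor gene Cdkn2d (−0.91, adjusted p = 0.0143) and the histone variant gene H2afz (−0.62, adjusted p = 0.00979), with a median of −0.18. Cdkn2d lost the call without unstimulated replicate 1, unstimulated replicate 2 or iBP replicate 2 (adjusted p = 0.0563 to 0.183). H2afz lost the call without unstimulated replicate 1 or either iBP library (adjusted p = 0.0665 to 0.17). Limma called 0 of 67 ribosome biogenesis genes (median 0.07), 0 of 83 cytosolic ribosomal protein genes (0.11), 0 of 75 mitochondrial ribosomal protein genes (−0.15), 0 of 78 oxidative phosphorylation genes (−0.09) and 0 of 47 proteasome genes (−0.12). It also called 0 of 57 translation factors (0.03), 0 of 22 aminoacyl-tRNA synthetases (−0.03), 0 of 25 serine, one-carbon and ATF4 genes (0.05) and 0 of 41 interferon response genes (0.06). The median over all genes was −0.03. At an unadjusted p under 0.05 there were 12, 2, 3, 2 and 7 genes of the first 5 lists and 4, 0, 2 and 5 of the other 4. Small differences in some lists lay mostly to 1 side. Cytosolic ribosomal protein genes had 66 above 0 and 17 below. Mitochondrial ribosomal protein genes had 19 above and 56 below, oxidative phosphorylation genes 23 and 55, and proteasome genes 10 and 37. Of all tested genes 45.65% were above 0. These shifts were not tested. Glycolysis had 1 rise of 22, Hif1a, and 1 fall, Slc16a3. The glucose transporter gene Slc2a1 read 58.7 and 50.8 FPKM in unstimulated, 80.8 and 95.7 in stimulated and 78.4 and 90.5 in iBP libraries (0.62, adjusted p = 0.0638). Among 37 chaperone genes of the endoplasmic reticulum 1 rose, Pdia4, a disulfide isomerase gene, by 1.18 ± 0.13 (adjusted p = 0.000878). Of 33 cholesterol and fatty acid genes 1, Mfsd2a, rose, and 24 had a difference above 0 (median 0.22).

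**Figure D4:**
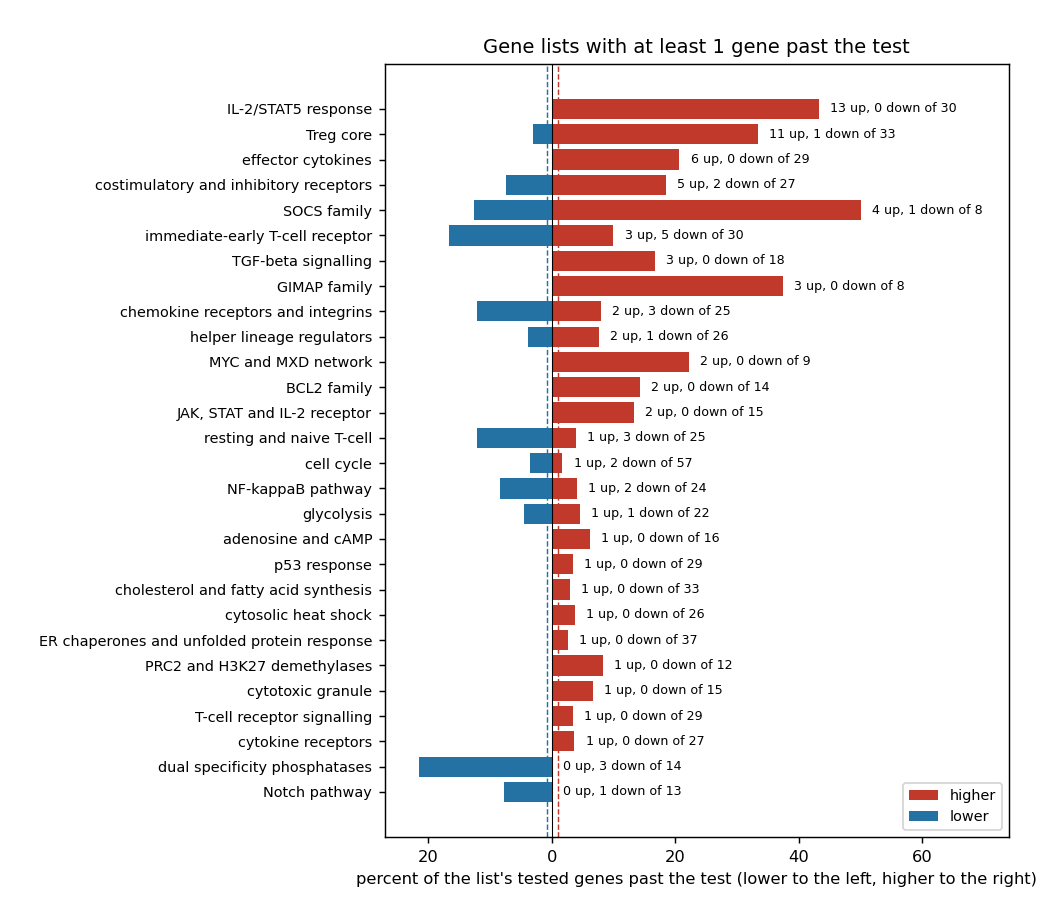
Bars give the percent of each list's tested genes that passed the test, higher to the right in red and lower to the left in blue, for lists with at least 5 tested genes and at least 1 past the test; dashed lines mark the shares over all tested genes (1.03% and 0.728%). The SOCS family (4 of 8) and the IL-2/STAT5 response (13 of 30) reach farthest to the right, and the dual specificity phosphatases (3 of 14) farthest to the left. Lists share genes, so the bars are not separate results. They were chosen with earlier results of these data known, so the bars do not test them against the dashed lines. All 4 SOCS rises are among the 13 of the IL-2/STAT5 response.

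The stimulated libraries without iBP share the unstimulated libraries as their control, so their values are set side by side here and no overlap is counted. Against that control 135 genes passed with stimulation alone (1.29%), 101 higher (0.968%) and 34 lower (0.326%). Il22 differed by 5.73 with stimulation alone and by 5.15 with iBP, Socs1 by 2.75 and 2.77, Foxp3 by 1.41 and 1.57, and Bcl6 by −2.18 and −2.18. Tested directly by limma, iBP against stimulated, 0 of the 183 genes passed. In that contrast 1 of all 10436 genes passed, a higher one (0.00958%). An unadjusted p under 0.05 was found for 498 genes, where 521.8 would be expected if no gene differed. The difference between iBP and stimulated libraries was −0.58 (95% interval −1.07 to −0.10) for Il22, −0.59 (95% interval −1.21 to 0.04) for Csf2, 0.01 (95% interval −0.24 to 0.27) for Socs1, 0.15 (95% interval −0.19 to 0.50) for Foxp3 and 0.00 (95% interval −0.38 to 0.37) for Bcl6. These intervals are not adjusted for the number of genes, and that of Il22 leaves out 0.

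Some of the 183 genes read alike in unstimulated and stimulated libraries and otherwise with iBP; these were singled out after their values were seen. Abhd10, a mitochondrial hydrolase gene, read 10.1 and 9.68 FPKM in unstimulated, 10.04 and 9.21 in stimulated and 4.09 and 4.29 in iBP libraries (−1.07, adjusted p = 0.0412). Srm, the spermidine synthase gene, read 20.1 and 24.8 FPKM in unstimulated, 21.2 and 20.1 in stimulated and 12.5 and 10.1 in iBP libraries (−0.93, adjusted p = 0.0354). For both genes the iBP libraries were below the other 4. Hspa1a, a stress-induced chaperone gene, read 83.6 and 76.1 FPKM in unstimulated, 70.5 and 93.8 in stimulated and 132 and 134 in iBP libraries (0.73, adjusted p = 0.0299). Its near-identical copy Hspa1b, with which reads could have been exchanged, read 25.2 and 22.5 FPKM in unstimulated, 20.7 and 24.0 in stimulated and 36.1 and 38.7 in iBP libraries (0.63, adjusted p = 0.0943). The ribosomal RNA precursor Rn45s, which is not a poly(A) transcript, read 577 and 598 FPKM in unstimulated, 735 and 585 in stimulated and 877 and 1098 in iBP libraries (0.74, adjusted p = 0.018). Directly between iBP and stimulated libraries none of these passed: Abhd10 stood at −1.03 (adjusted p = 0.774), Srm at −0.83 (0.774), Hspa1a at 0.70 (0.683) and Rn45s at 0.58 (0.774). Abhd10 and Srm lost the call without any 1 of the 6 libraries (adjusted p = 0.0539 to 0.286). Hspa1a lost the call without any 1 of the 4 libraries compared (adjusted p = 0.0752 to 0.208). Rn45s lost the call without unstimulated replicate 1, unstimulated replicate 2 or iBP replicate 2 (adjusted p = 0.0508 to 0.24).

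The label Treg was checked against defining genes. Foxp3, Cd3e, Cd4, Il2ra and Ctla4 were expressed in every library, Cd4 at 87.4 and 104 FPKM unstimulated and 107 and 91.3 with iBP. The 8 genes of the T-cell and Treg list took 0.206% and 0.212% of summed FPKM unstimulated and 0.281% and 0.282% with iBP, and 3 rose (Foxp3, Il2ra and Ctla4). Markers of other cells were present in all libraries. Over all tested genes 1.75% passed, 1.03% higher and 0.728% lower. At that share, 0 calls in marker lists of this size are not a result about these cells. Genes of conventional CD4 T cells, the cells closest to Treg, took 0.0280% and 0.0272% of summed FPKM unstimulated and 0.0313% and 0.0355% with iBP. Limma called 0 of the 8 tested (3 at an unadjusted p under 0.05), the median difference was 0.55, and 6 were above 0. For 4 of them, Ifng, Il2, Il21 and Treml2, both iBP libraries were above both unstimulated ones, and for 0 both were below. Among all tested genes 18.1% were above in this way and 23.9% below. The part of such cells in the cytokine rises was not tested. B-cell markers took 0.294% and 0.316% of summed FPKM unstimulated and 0.292% and 0.296% with iBP, with 0 of 14 past the test. MHC class II and dendritic markers took 2.49% and 2.06% against 2.31% and 2.26%, with 0 of 7 tested past it, and H2-Aa, which encodes a class II alpha chain, read 2231 and 2255 FPKM unstimulated and 2216 and 2328 with iBP. Natural killer and innate lymphoid markers took 0.0733% and 0.0913% unstimulated and 0.126% and 0.129% with iBP, and 1 of 5 tested passed, Il2rb, which Treg also express. Without Il2rb the summed level of that list was 35.0 and 26.1 FPKM unstimulated and 24.8 and 27.1 with iBP. Its defining receptor gene Ncr1 read 0 in both unstimulated libraries and 0.0602 and 1.21 FPKM with iBP. Myeloid markers took 0.0358% to 0.0435% and CD8 markers 0.00236% to 0.00383% over the 4 libraries, with 0 past the test. Erythroid and platelet markers took 0.225% and 0.204% unstimulated and 0.206% and 0.112% with iBP, and 0 of 11 passed.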

How the data were processed

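RNA of 6 libraries was measured, 2 in each of 3 groups. The authors deposited FPKM values, fragments scaled to transcript length and mapped fragments. HISAT2 2.2.1, StringTie 2.1.1 and the mm10 assembly are named per the submitters' processing notes. For the annotation, filters, multi-mapped reads and strand, the setting is not given in the sources used here. Read depth is unknown, so no counting interval is given. FPKM totals are only roughly fixed, so a change in abundant genes can move the others. No molecular identifiers marked PCR copies.

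The analysed scale was log2(FPKM + 1), with a pseudocount of 1. Genes with at least 1 FPKM in at least 2 libraries were tested with limma 3.58.1 in R 4.3.3. The model had the 3 groups over all 6 libraries and a variance trend with mean level (residual degrees of freedom 3, prior 8.52). Two-sided p-values were adjusted by Benjamini-Hochberg over all tested genes, with a threshold of 0.05. Intervals are 95% and unadjusted. Separate mice or cultures for the 2 libraries of a group are not stated, so the spread behind the p-values is that between these samples and may be technical. Where a left-out library leaves a group with 1, its spread is taken from that of the other groups.

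Named are the 15 largest rises and falls past the test without overlap between groups and with a mean of at least 5 FPKM in the higher group, leaving out predicted, clone, pseudogene and small RNA names. Up to 5 members with the largest differences are named per gene list, and a set of Treg and Polycomb genes is given whatever its values. Some genes under this rule are left out and are not reported here. The comparison, gene lists and named genes were chosen with earlier results of these data known. Alternatives changed the pseudocount, filter, scaling, variance moderation, libraries fitted and block. Gene coordinates come from the GENCODE annotation of mm10 and promoter sequences from RefSeq. Python 3.11.15 and matplotlib 3.10.9 drew the figures.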

Additional observations from a re-analysis of the deposited data

Results flagged for a closer look

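Dnajb11, which encodes a cochaperone of the endoplasmic reticulum, stood out because it differed between the iBP libraries and the stimulated libraries when that difference was tested itself. It read 21.0 and 16.9 FPKM in unstimulated, 2.69 and 2.44 in stimulated and 16.1 and 14.0 in iBP libraries. The difference of iBP minus stimulated was 2.17 on the log2(FPKM + 1) scale (adjusted p = 0.00813 by limma), the 1 gene past the test in that contrast. Both iBP libraries were above both stimulated ones, and the stimulated pair was also below both unstimulated libraries. Against the unstimulated libraries the iBP libraries differed by −0.31 (adjusted p = 0.648), and the iBP values were below the unstimulated ones without passing.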

How the results depend on the processing

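The calls changed between the 16 alternative fits. The direction of the 183 genes past the test did not, but their libraries did not overlap, so most of these fits could not reverse it. With a minimum of 5 FPKM, 7 of the 183 were not tested. With no filter on low values 11 genes passed (10 higher and 1 lower), with no variance trend 9 (6 and 3), and with the replicate block 109 (67 and 42). With rescaling to TPM 153 passed, and the number lower fell from 76 to 49. Leaving out 1 library in turn gave 53 to 190 genes, 37 to 112 higher and 16 to 86 lower. The lowest counts were those without iBP replicate 2. The share of calls that were higher was 58.5%, and it was 90.9% with no filter, 68.7% without unstimulated replicate 2 and 69.8% without iBP replicate 2. Other settings (pseudocount of 0.1, minimum of 5 FPKM, median-of-ratios and quantile scaling, robust moderation, only the 4 libraries compared) gave 164 to 234 genes. The cause of these shifts was not tested. Groups share replicate numbers, but same-numbered libraries did not deviate together (correlation −0.0185 between unstimulated and iBP), so the numbers are not treated as pairs. With 2 libraries per group and unknown depth, many differences could not pass. The median half-width of 0.57 on the log2 scale is that of an unadjusted interval, and larger differences could also miss the adjusted threshold.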
